A study of Mus musculus with 6 samples.

Results

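Extracellular matrix and fibroblast genes were followed in macrophages sorted from Day 3 skin wounds of young and aged mice. The list held 40 genes, of which 39 had a row under their gene symbol among the 15168 genes of the count table; Col12a1 had no row in the table used here. It combined 3 matrix genes that macrophages themselves are known to make (Fn1, Thbs1 and Vcan) with genes best known from fibroblasts and other stromal cells. After a filter on low counts, 24 of the 40 were among the 11878 genes that could be tested, so the remaining members with a row are given by their levels, except where an alternative fit tested them. All mice were wild-type female C57BL6/J animals, labelled as 12 weeks old (young) or 24 months old (aged), and each carried 2 full-thickness wounds of 10 mm on the back. Wounds were taken 3 days later and F4/80+ CD64+ cells were sorted from the digested tissue, with 3 samples per age named by set letter (A, B and C). There were no unwounded samples and no other time point, and the labels do not say whether each sample came from a separate animal, so p-values measure the spread between these samples, which may be technical.

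The extracellular matrix is the protein scaffold outside cells. In skin it consists mainly of fibrillar collagens and proteoglycans laid down by dermal fibroblasts, and of a basement membrane of collagen IV, laminin, nidogen and perlecan under epithelium and around vessels. During repair an early provisional matrix rich in fibrin, fibronectin and versican forms first, and macrophages contribute to it by secreting fibronectin, thrombospondin-1 and versican, while most of the collagen that follows comes from fibroblasts. In a sorted macrophage sample, transcripts of collagen-producing cells can also be picked up with the macrophages.

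The 6 libraries held between 15270103 and 17927483 counts. Levels are given as CPM, the count divided by the library size after scaling by the trimmed mean of M values, on which 1 count equals 0.0553 to 0.0700 CPM. All 8 macrophage markers examined (Ptprc, Itgam, Adgre1, Fcgr1, Csf1r, Lyz2, Cd68 and Mertk) were present in every library. Their summed level, most of it Lyz2, was 27940, 30633 and 43004 CPM in young and 25511, 20155 and 22034 CPM in aged libraries, lower in every aged library. Of the 8, Itgam was called higher and Adgre1 lower in aged samples. The part of this shift in the members' levels was not tested. The library aged B stood apart by its keratinocyte genes: Krt14 had 1259 counts there and 0 to 14 in the other 5 libraries, and Krt17 had 580 counts against 0 to 3. The main comparisons that rest on aged B are therefore given with and without it.

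In aged against young macrophages, 5 of the 24 tested members were higher and 0 were lower at an adjusted p under 0.05 (edgeR quasi-likelihood test, Benjamini-Hochberg over all genes tested). Over all 11878 genes, 9.73% were called higher and 7.97% lower. The 5 were Thbs1, Fn1 and Vcan, which macrophages make, together with Emilin2 and Col4a2. All except Fn1 also passed a 2-fold threshold, which 4.59% of all genes did in the higher direction and 4.20% in the lower. At an unadjusted p under 0.05 there were 7 higher members and 1 lower, beside 18.1% and 16.5% of all genes. DESeq2, which gave an adjusted p to 27 members, called 7 higher and 0 lower, adding Fbln2 and Tnc, beside 12.4% and 9.16% of the 11912 genes it adjusted. The same 5 of 24 were called higher when aged B was left out, beside 7.32% of all genes. The count depended on other libraries. Without young C Vcan alone of 28 members was called, beside 1.24% of all genes called higher. Without aged A 11 of 28 members were called higher, beside 7.05% of all genes, adding Col1a1, Fbln2, Loxl2, Lum, Thbs2 and Tnc. Loxl2, Thbs2 and Tnc entered that fit because the filter on low counts was applied anew. They passed it through aged B and aged C, where they were high, and had 0 counts in the omitted aged A. Their calls in that fit therefore follow in part from the filter and are not separate support. Without aged B, young C or aged A, 0 members were called lower, beside 4.98%, 0.548% and 4.26% of all genes. Complete separation of the ages, with every aged sample above every young one, was seen for 6 tested members against 19.2% of all genes. The opposite order was seen for 1 tested member, Col14a1, against 19.0% of all genes. With 3 samples against 3, an exact two-sided permutation test cannot go below p = 0.1, the value that each of these 7 members gave.

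Thbs1 encodes thrombospondin-1, a secreted matricellular glycoprotein that binds CD36 and CD47 and can activate latent TGF-β. The gene lies on chromosome 2 at 118111876 to 118127133 (mm10, plus strand). It stood at 6947, 2009 and 2594 CPM in young A, B and C and at 18876, 15182 and 16457 CPM in aged A, B and C. Every aged library was above every young library, and the young libraries spread widely, with young A well above the other two. The young mean was 3850 ± 2698 CPM and the aged mean 16839 ± 1876 CPM (SD, n = 3), a 4.37-fold difference. By mean CPM Thbs1 ranked 27 of all tested genes in young and 6 in aged macrophages. The log2 fold change was 2.13 ± 0.41 (SE; adjusted p = 0.0115, edgeR). Without young A it was 2.88, and without young C the adjusted p in edgeR rose to 0.0688.

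Fn1, on chromosome 1 at 71585520 to 71653200 (minus strand), encodes fibronectin, the adhesive glycoprotein of the provisional wound matrix. Its level was 281, 330 and 334 CPM in the young libraries and 606, 696 and 540 CPM in the aged libraries. The ages did not overlap, and within each age the libraries lay close together. The young mean was 315 ± 29.3 CPM against an aged mean of 614 ± 78.0 CPM (SD, n = 3), 1.95-fold apart. The log2 fold change was 0.96 ± 0.17 (SE; adjusted p = 0.00878, edgeR). Without young C the adjusted p was 0.0536 in edgeR, with a log2 fold change of 1.01.

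Vcan encodes versican, a large chondroitin sulphate proteoglycan that binds hyaluronan and is also known as a monocyte-expressed gene. It lies on chromosome 13 at 89655312 to 89742509 (minus strand). Counts were 439, 430 and 576 in young A, B and C and 2199, 2017 and 1636 in aged A, B and C. These correspond to 24.3, 25.2 and 38.0 CPM in young and 154, 128 and 101 CPM in aged libraries. The lowest aged library was therefore well above the highest young one. The difference was 4.38-fold between the means, 29.2 ± 7.68 against 128 ± 26.5 CPM (SD, n = 3), with a log2 fold change of 2.13 ± 0.23 (SE; adjusted p = 0.00136, edgeR). Among the 5 called members only Vcan stayed under the threshold in all 6 fits that left out a library, at adjusted p values in edgeR from 0.00164 to 0.0133. On the opposite strand the gene Gm4117 overlaps 3050 bases of Vcan with 8 to 18 counts per library, and Apol7d overlaps 364 bases of Fn1 with 6 to 12 counts. Strand use in the counting is not given in the sources used here, so reads in these overlaps cannot be told apart. The same holds for Lamc1 (149 to 313 counts), over which Gm8818 lies with 127 to 285 counts, and for Loxl2 (0 to 71 counts), which shares 74219 bases with Gm27177 (1 to 30 counts).

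**Figure D1:**
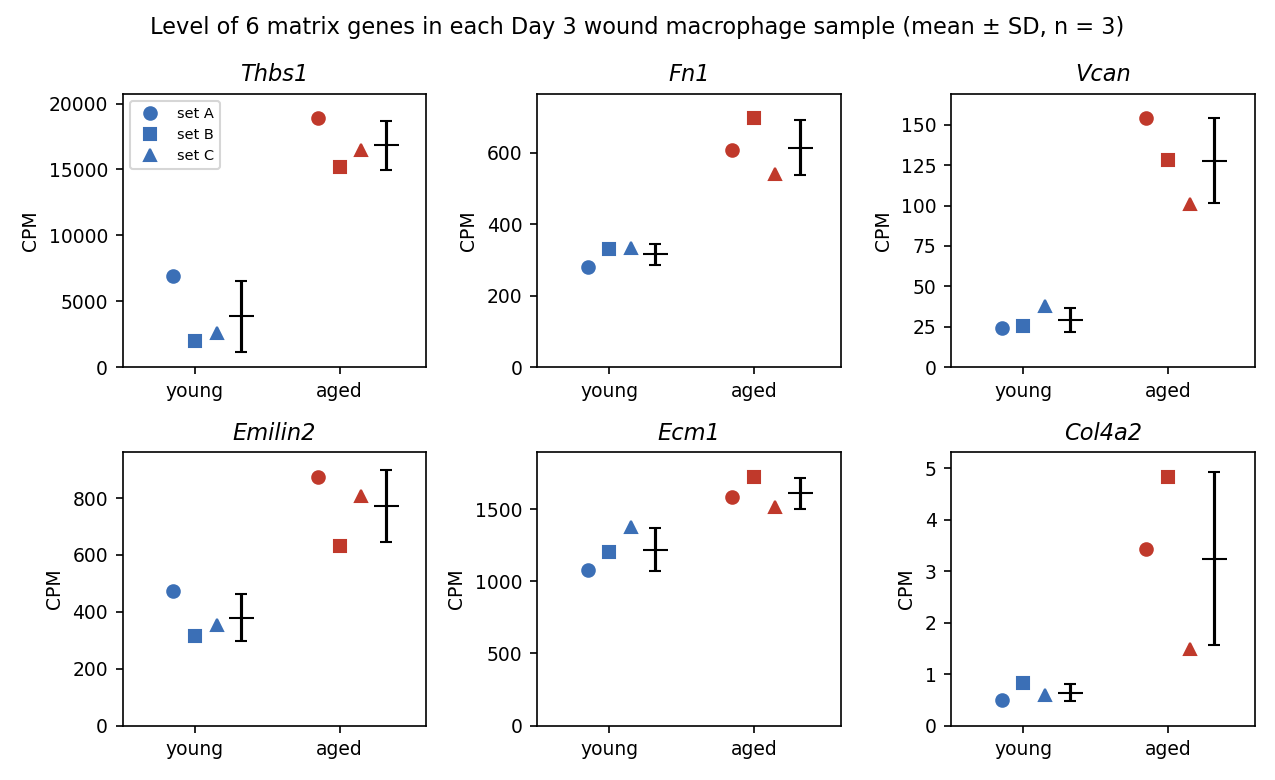
Level in CPM (vertical axes, each from 0) of Thbs1, Fn1, Vcan, Emilin2, Ecm1 and Col4a2 in the 3 young (blue) and 3 aged (red) libraries. Symbols mark the set letter and black bars the mean ± SD; for each of these 6 genes all aged points lie above all young points, and Thbs1 in young A stands above young B and young C.

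Promoter windows are shown for Vcan, the called macrophage-made member with a window in the RefSeq table (GRCm38.p6), and for Ecm1, the member of highest level per length with one. The table matched 26 of the 40 members, and Thbs1 and Fn1 were not matched. Each line gives the 250 bases before the start site, 5′ to 3′ on the gene's own strand, with matches to the motifs below in capitals. The Vcan window is chr13:89742513-89742762 (minus strand) and lies within the annotated span of Gm4117, and the Ecm1 window is chr3:95739570-95739819 (minus strand).
Vcan: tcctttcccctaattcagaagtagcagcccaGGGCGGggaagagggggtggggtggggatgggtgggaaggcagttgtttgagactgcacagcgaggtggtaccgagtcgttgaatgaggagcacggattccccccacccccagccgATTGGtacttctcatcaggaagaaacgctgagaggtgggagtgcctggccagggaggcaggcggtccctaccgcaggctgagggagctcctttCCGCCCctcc
Ecm1: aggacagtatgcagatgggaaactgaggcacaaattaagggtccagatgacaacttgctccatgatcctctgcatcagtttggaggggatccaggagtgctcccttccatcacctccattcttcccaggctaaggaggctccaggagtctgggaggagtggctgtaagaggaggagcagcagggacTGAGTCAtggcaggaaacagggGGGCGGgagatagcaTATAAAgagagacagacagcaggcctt
Searches were run on both strands. The TATA motif was searched as the letters TATAAA. The GC motif, known from Sp1 sites, was searched as GGGCGG. The AP-1 motif was searched as TGANTCA, and the motif named CCAAT by those letters. No match overlapped another in these windows. In the Vcan window GGGCGG lay 219 to 214 bases before the start, its reverse complement CCGCCC lay 10 to 5 bases before it, and ATTGG, the reverse complement of CCAAT, lay 103 to 99 bases before it. In the Ecm1 window TATAAA lay 27 to 22, GGGCGG 42 to 37 and TGAGTCA 64 to 58 bases before the start. Of all 32851 windows of this length in the table, 12.4% held the TATA motif, 32.7% the GC motif, 6.75% the AP-1 motif and 33.8% the CCAAT motif, on either strand. These matches describe letters in the windows and are not binding sites.

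Emilin2 and Ecm1 were listed among the stromal genes but were abundant in these macrophages. Emilin2 encodes an elastin microfibril interface protein and lies on chromosome 17 at 71252172 to 71311978 (minus strand). It measured 473, 315 and 352 CPM in young A, B and C and 875, 630 and 809 CPM in aged A, B and C. The aged libraries were all above the young ones, and aged B was the lowest of them. Emilin2 was 2.03-fold higher in aged samples, with a log2 fold change of 1.02 ± 0.21 (SE; adjusted p = 0.0137, edgeR). Its adjusted p in edgeR passed 0.05 in 3 of the 6 fits that left out a library, reaching 0.0548 without young B, 0.0777 without young C and 0.0543 without aged C.

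Ecm1 encodes extracellular matrix protein 1, a secreted glycoprotein that binds perlecan and other matrix proteins (chromosome 3, 95734147 to 95739569, minus strand). It was at 1079, 1205 and 1375 CPM in young and at 1587, 1723 and 1515 CPM in aged libraries. The ages did not overlap, and the means were 1220 ± 148 against 1608 ± 106 CPM (SD, n = 3), 1.32-fold apart. The log2 fold change of 0.40 ± 0.17 (SE) had an adjusted p of 0.135 in edgeR, and its interval of 2 standard errors ran from 0.05 to 0.75.

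The basement membrane members included Col4a2, the last of the called genes. Col4a1 and Col4a2 encode the α1 and α2 chains that assemble together into the collagen IV trimer, and the genes lie head to head on chromosome 8. In the file Col4a1 (11198423 to 11312826, minus strand) and Col4a2 (11312805 to 11449287, plus strand) overlap by 22 bases. Col4a2 had 9, 14 and 9 counts in young A, B and C and 49, 76 and 24 counts in aged A, B and C. All aged libraries were above all young ones, at counts low enough that aged C lay much closer to the young libraries than aged B did. The young mean of 0.637 ± 0.166 CPM compared with 3.25 ± 1.68 CPM in the aged libraries (SD, n = 3), and the log2 fold change was 2.34 ± 0.51 (SE; adjusted p = 0.0163, edgeR). Without aged B the log2 fold change was 1.94 (adjusted p = 0.0459, edgeR), and without young C the adjusted p was 0.0818. Its partner Col4a1 stood at 6.47, 3.99 and 2.24 CPM in young and 9.17, 6.17 and 4.94 CPM in aged libraries. These ranges overlapped, and Col4a1 was not called (log2 fold change 0.67 ± 0.39, SE; adjusted p = 0.247, edgeR). Lamc1, the laminin γ1 chain, ranged from 9.96 to 19.9 CPM and was not called (log2 fold change 0.42, adjusted p = 0.261, edgeR). Nid1, which encodes nidogen-1, had 2, 2 and 3 counts in young and 8, 21 and 7 counts in aged libraries. These groups did not overlap. Against a young level set at a floor of 3 counts per library, the aged mean of Nid1 was 4.31-fold higher (2.76-fold without aged B). The aged mean was taken as exact, so these ratios are not lower bounds. Nid1 fell below the filter and was not called in the fit without one. Hspg2 (perlecan), Lama4 (laminin α4) and the collagen XV gene Col15a1 had at most 0.827 CPM in any library.

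The other 34 members with a row, set apart from Fn1, Thbs1, Vcan, Ecm1 and Emilin2 after their levels had been seen, were low, with mean levels from 0.111 to 23.1 CPM. Their summed level was 77.3, 69.7 and 95.5 CPM in young A, B and C and 53.9, 294 and 94.2 CPM in aged A, B and C. Aged B was thus far above all the others, aged A was the lowest of all 6, and aged C lay within the young range. The ratio of the aged to the young mean was 1.82, but 0.916 without aged B. With Ecm1 and Emilin2 added to the sum, an alternative chosen after seeing the data, the ratio was 1.5. In bulk samples a change in the number of contributing cells and a change in RNA per cell cannot be told apart.

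Gene by gene the same library stood out. Of the 34, 30 had their highest level in aged B, and in 22 it was over 2 times the highest of the other 5 libraries. Of the 19 tested among them 16 were highest there, while 17.3% of all tested genes had their highest level in aged B. Relative to the young mean, the median member was at 4.69-fold in aged B, 0.415-fold in aged A and 1.24-fold in aged C. In aged A 27 of the 34 lay below the young mean and 11 had 0 counts, whereas no member had 0 counts in aged B. A count of 0 in aged A allows a level of up to 0.210 CPM (3 counts), by counting error only.

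**Figure D2:**
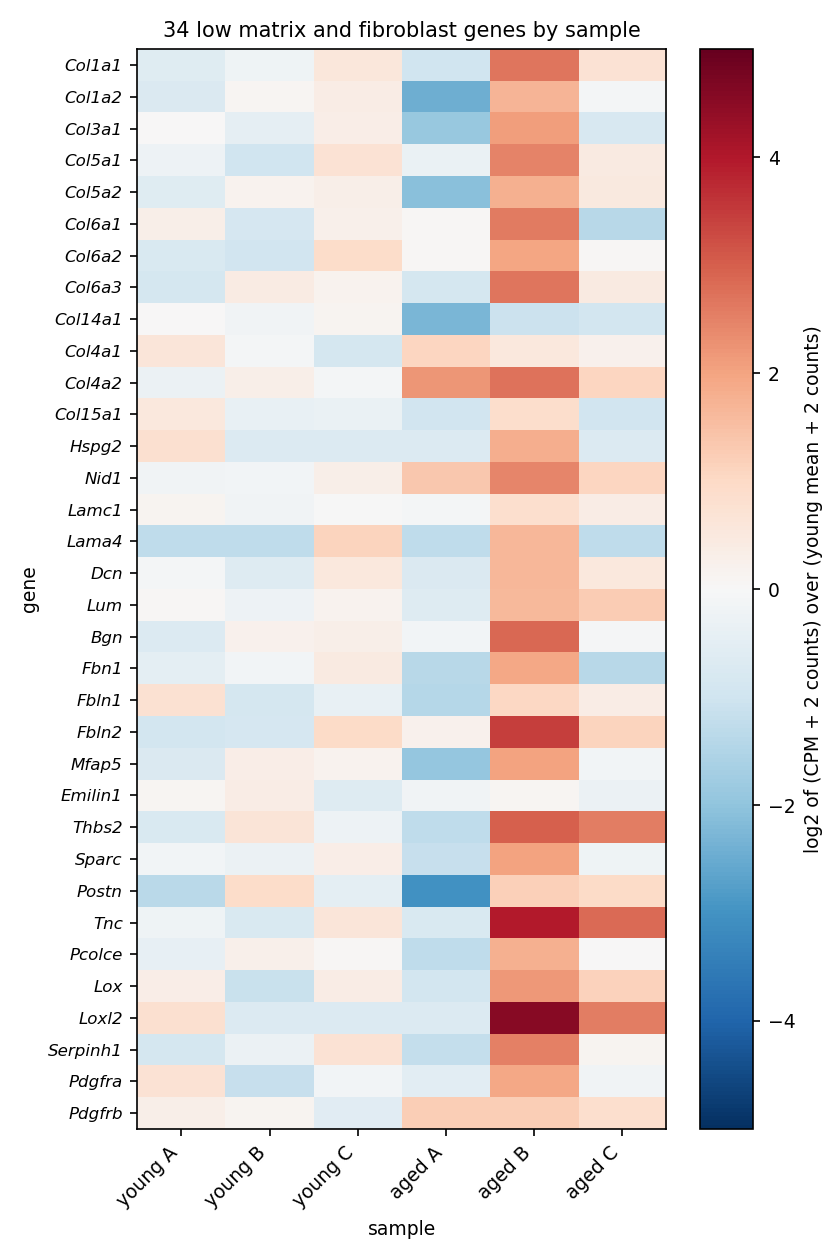
Level of the 34 low members (rows) in each library (columns), as the log2 ratio of CPM plus 2 counts to the young mean plus 2 counts; red is above and blue below the young mean. The aged B column is red for all rows except Col14a1 and nearly white for Emilin1, while aged A is mostly blue.

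Among these 34 genes the highest levels per length belonged to Sparc, Dcn and Col3a1. Sparc encodes osteonectin, a collagen-binding matricellular protein, and measured 15.3, 13.4 and 21.2 CPM in young A, B and C and 7.35, 66.7 and 14.4 CPM in aged A, B and C. Dcn encodes decorin, the small leucine-rich proteoglycan that decorates collagen fibrils, and measured 9.67, 6.56 and 14.8 CPM in young and 6.16, 33.0 and 14.8 CPM in aged libraries. Col3a1, the collagen III chain abundant in early granulation tissue, measured 11.3, 8.21 and 14.3 CPM in young and 2.94, 48.2 and 6.42 CPM in aged libraries. In all 3 genes aged B was the highest and aged A the lowest library, so the aged samples surrounded the young ones. The log2 fold changes were 0.83 ± 0.62 for Sparc, 0.80 ± 0.50 for Dcn and 0.77 ± 0.76 for Col3a1 (SE), with adjusted p values in edgeR of 0.370, 0.281 and 0.505. Without aged B they were -0.59, 0.04 and -1.24.

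Among the collagens, the fibrillar group (Col1a1, Col1a2, Col3a1, Col5a1 and Col5a2), which forms the tensile fibres of the dermis, summed to 16.3, 15.7 and 25.5 CPM in young and 5.39, 84.8 and 16.3 CPM in aged libraries. Aged B alone was above the young range and aged A alone below it. Of the 4 tested genes 0 were called, beside 9.73% higher and 7.97% lower of all tested genes. Col1a1, for example, had 1.12, 15.6 and 4.01 CPM in aged A, B and C against 1.49 to 3.56 CPM in young libraries. The collagen VI chains Col6a1, Col6a2 and Col6a3, which form beaded filaments, had at most 2.16 CPM in any library, each with its highest level in aged B. Col14a1, a fibril-associated collagen, was the exception. It had 15, 12 and 14 counts in young A, B and C and 1, 5 and 6 counts in aged A, B and C, with every aged library below every young one. Its log2 fold change was -1.64 ± 0.62 (SE), and it was not called (unadjusted p = 0.0235, adjusted p = 0.0890, edgeR).

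The small leucine-rich proteoglycans Dcn, Lum and Bgn organise collagen fibrils. Summed, they stood at 9.91 to 18.8 CPM in young libraries and at 8.68, 50.1 and 21.6 CPM in aged A, B and C. Of the 3, 0 were called, beside 9.73% higher and 7.97% lower of all tested genes. Lum was above the young range in aged B (7.13 CPM) and aged C (5.62 CPM), with 1.40 CPM in aged A and 1.88 to 2.51 CPM in young libraries. Among the microfibril and elastic fibre genes, Fbn1 (fibrillin-1), Fbln1, Fbln2 (fibulins) and Mfap5 were low, while Emilin1 ranged from 3.43 to 6.97 CPM without separating the ages. Fbln2 had 4, 4 and 17 counts in young and 9, 110 and 21 counts in aged libraries. It had the largest log2 fold change of the tested members, 2.52 ± 0.91 (SE), and an adjusted p of 0.0794 in edgeR against 0.0199 in DESeq2. Without aged B its log2 fold change was 0.92.

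Of the low matricellular members, which modulate adhesion rather than build fibres, Tnc (tenascin-C) had 1, 0 and 3 counts in young A, B and C and 0, 50 and 22 counts in aged A, B and C. Thbs2 (thrombospondin-2) reached 2.29 CPM in aged B and 1.67 CPM in aged C and had 0 counts in aged A. Both were therefore above the young range in aged B and aged C only. Neither passed the filter. With the young level set at the floor of 3 counts per library, the aged mean of Tnc was 8.41-fold above it. Without aged B this ratio was 3.77 and rested on aged C alone, as aged A had 0 counts. The aged mean was taken as exact, so these ratios are not lower bounds. Postn, which encodes periostin, overlapped between ages. It had 0 counts in aged A, 2.23 CPM in aged B and 1.85 CPM in aged C, against 0.276 to 1.82 CPM in young libraries. The collagen-processing members Pcolce, Lox, Loxl2 and Serpinh1, which trim, cross-link or fold collagen, summed to 3.81 to 5.94 CPM in young libraries and to 1.82, 25.8 and 7.28 CPM in aged A, B and C. Loxl2 was the most uneven of them, with 4, 0 and 0 counts in young and 0, 71 and 17 counts in aged libraries. The PDGF receptors, which mark mesenchymal cells, were close to the limit of detection. Pdgfra, the fibroblast receptor, had at most 0.954 CPM. Pdgfrb, known from pericytes, had 6, 5 and 2 counts in young and 11, 12 and 9 counts in aged libraries, which did not overlap. It fell below the filter and was not called in the fit without one.

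Leaving out aged B moved many of the low members across 0. Of the 19 low members tested, 17 had a positive log2 fold change with all 6 libraries and 10 without aged B. The median over all 24 tested members was 0.95 with all libraries and 0.16 without aged B, beside -0.02 for all tested genes in both cases. For Thbs1, Fn1, Vcan and Emilin2 the log2 fold changes without aged B were 2.21, 0.88, 2.14 and 1.16.

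**Figure D3:**
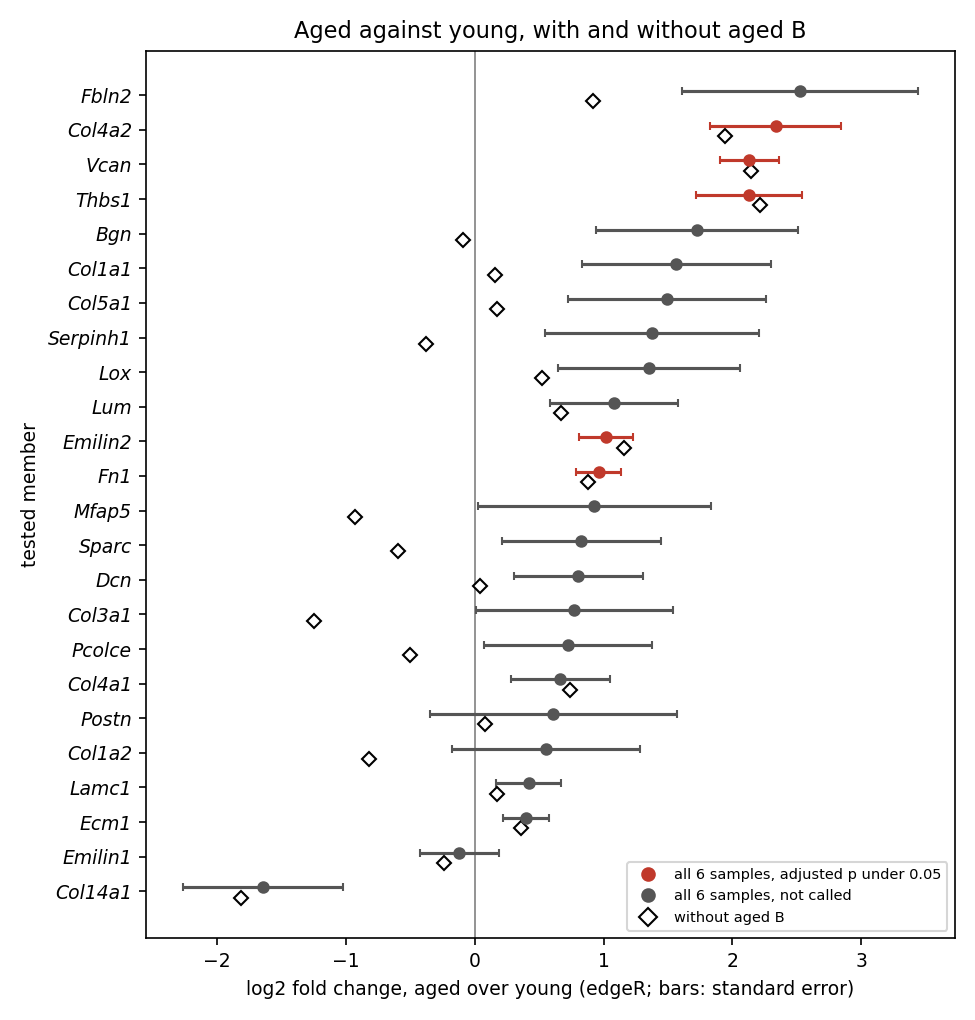
Log2 fold change of aged over young macrophages (horizontal axis) for the 24 tested members. Circles with bars give the edgeR estimate and its standard error from all 6 libraries, red where called, and open diamonds the estimate without aged B; the diamonds of Col3a1, Mfap5 and Col1a2 fall below 0 while those of Vcan, Thbs1, Emilin2 and Fn1 stay near the circles.

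Markers of other skin cells were read in the same libraries. The study describes its sequenced cells as CD45+ and CD11b+ as well as F4/80+ and CD64+, a gate that should remove fibroblasts, keratinocytes, endothelial and mural cells. Of 15 fibroblast markers other than the members 7 were tested and 0 called, beside 9.73% higher and 7.97% lower of all tested genes. A row was found for 11 of the markers. Their sum was 26.6, 22.8 and 30.0 CPM in young A, B and C and 33.9, 43.0 and 32.6 CPM in aged A, B and C. Aged B was again the highest library, by less than for the members, and every aged sum was above every young one. Pi16 and Igfbp6 were large parts of this sum, at 16.7 and 12.0 CPM in aged A and 5.86 and 14.2 CPM in aged C. The median log2 fold change of the 7 tested markers was 0.61 with all libraries and -0.43 without aged B. In aged A Dpt, Mfap4, Twist1 and Twist2 had 0 counts, while Pi16, with 238 counts, and Fap, with 11, were at their highest there. The 9 endothelial markers summed to 3.04 to 6.04 CPM in young libraries and to 2.73, 16.4 and 4.50 CPM in aged libraries, with 124 counts of Plvap in aged B. Of 9 keratinocyte markers 7 had a row and summed to 1.64 to 3.26 CPM in young libraries and to 8.89, 164 and 3.27 CPM in aged A, B and C, with Dsp at 0 counts in every library except aged B. Both tested keratinocyte markers, Krt14 and Sfn, were called higher in aged samples (adjusted p = 0.0258 and 0.0329, edgeR), beside 9.73% of all tested genes. Without aged B Krt14 was still called and Sfn was not (adjusted p = 0.0484 and 0.0980, edgeR). Of the 6 fits that left out a library Krt14 was called in 4 and Sfn in 2, and limma-voom called neither (adjusted p = 0.183 and 0.105). The 6 mural cell markers with a row, of 8, summed to 4.64, 12.2 and 5.67 CPM in young and 10.8, 8.72 and 9.13 CPM in aged libraries, and so did not follow aged B. The part that such cells had in the members' levels was not tested.

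Thbs1 is also known from platelets. Of 9 platelet markers 4 had a row: Itga2b, Gp1bb and Clec1b had at most 13 counts in any library, and Ppbp carried the rest of the sum. That sum was 304, 501 and 432 CPM in young and 890, 2736 and 1383 CPM in aged libraries, highest in aged B, where Thbs1 was the lowest of the aged libraries. Ppbp rose in aged samples (log2 fold change 2.02, adjusted p = 0.00967, edgeR), by 1.48 without aged B. Of 8 neutrophil markers 6 had a row and 5 were tested. Cxcr2 and Retnlg, 2 of the 5, rose in aged samples, beside 9.73% of all tested genes called higher, while Ly6g was not called. In the 6 fits that each left out a library Cxcr2 was called in 2 and Retnlg in 1. With the set letter as a replicate block neither was called (adjusted p = 0.0596 and 0.0555, edgeR). The study states that its sorting panel did not exclude Ly6G+ cells, so the sorted cells may hold a small share of neutrophils. The part of platelets and neutrophils in the Thbs1 level was not tested.

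**Figure D4:**
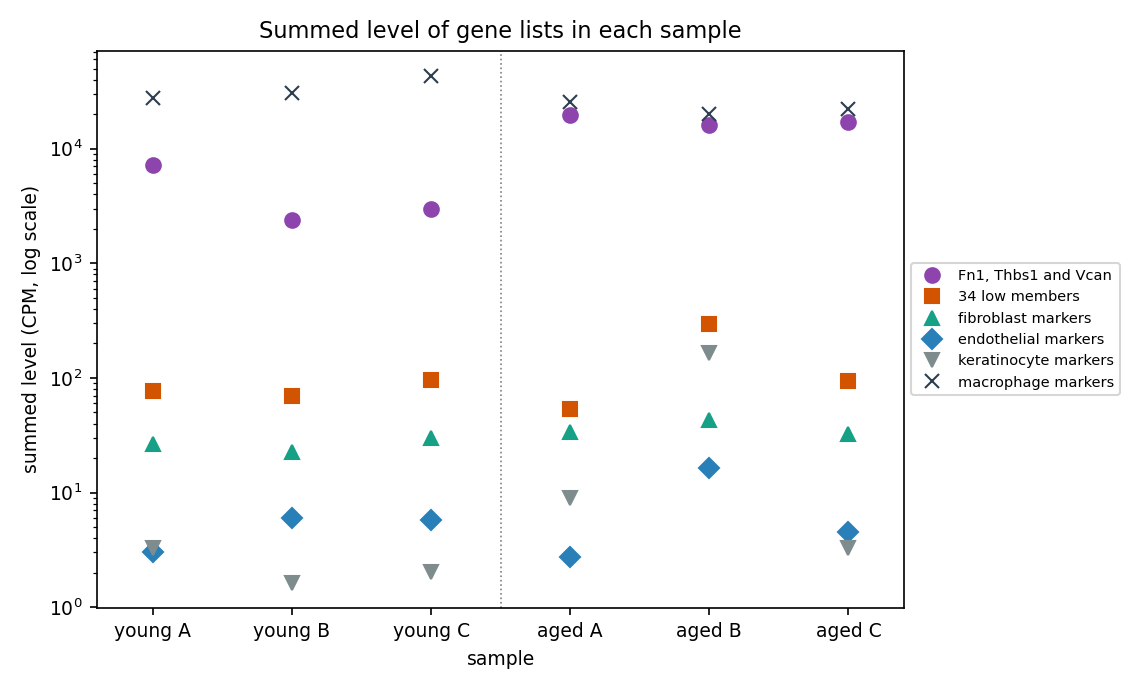
Summed level in CPM (log scale) of gene lists in each library. Fn1, Thbs1 and Vcan together are higher in every aged library, whereas the 34 low members and the keratinocyte, endothelial and fibroblast markers have their highest point in aged B.

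Levels between genes were compared per kilobase of the longest protein-coding transcript (CPM per kb). The order of the means over all 6 libraries was Thbs1 (1769), Ecm1 (744), Emilin2 (146), Fn1 (55.9), Sparc (10.0), Dcn (8.06), Vcan (6.31) and Col3a1 (2.74). Thbs1 and Ecm1 changed places between libraries, since young B and young C had 343 and 444 for Thbs1 and 634 and 724 for Ecm1. Ecm1 was above Emilin2, and Emilin2 above Fn1, in every library. The levels of Sparc, Dcn and Vcan overlapped. In young macrophages Vcan, at 2.35 ± 0.618 CPM per kb (SD, n = 3), lay below Sparc (7.23 ± 1.76) and near Col3a1 (2.02 ± 0.544). In aged A Vcan reached 12.4 CPM per kb against 3.20 for Sparc and 3.50 for Dcn, while in aged B it reached 10.3 against 29.0 and 18.8. The position of Vcan among the stromal genes therefore differed between aged libraries.

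The spread between samples was read for the 5 abundant and the 34 low members, groups that had been split by level after it was seen. The coefficient of variation of the 5 abundant members had a median of 21.7% in young and 12.7% in aged samples, beside medians over all tested genes of 19.0% and 18.3%. Among them Thbs1 in young samples varied most, at 70.1%. For the 34 low members the medians were 50.9% and 108%, and 25 of the 34 varied more among aged than among young libraries. At these counts sampling error adds to the spread of the lowest members, so a wider spread in the low group follows in part from the split. The wider aged spread draws on the same aged B values, where 30 of the 34 were highest, and is not separate support.

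Other genes of the matrix pathway were read from lists chosen with earlier results of these data known. Of 34 other matrix proteins 12 were tested, with 0 higher and 2 lower in aged samples, beside 9.73% and 7.97% of all tested genes. Spp1, which encodes osteopontin, a macrophage product, fell from 11828 ± 3973 to 6527 ± 993 CPM (SD, n = 3; log2 fold change -0.86, adjusted p = 0.0476, edgeR), and Col18a1, the collagen XVIII gene, fell by 2.14 on the log2 scale (adjusted p = 0.0130, edgeR). Tgfbi, which encodes a TGF-β-induced adhesion protein and lay at 1704 to 2899 CPM, was not called (log2 fold change 0.24, adjusted p = 0.475, edgeR). Thbs1, Fn1 and Vcan were thus higher and Spp1 lower in the same libraries. In the 6 fits that each left out a library, Col18a1 stayed under the threshold in 5 and Spp1 in 1.

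Of 17 genes for collagen modification 11 were tested, 2 higher and 2 lower, beside 9.73% and 7.97% of all tested genes. The prolyl hydroxylase subunit P4ha2 (log2 fold change -0.91) and Crtap (-0.58) fell in aged samples, while P4hb, which also serves as protein disulphide isomerase, rose (0.68), as did the lysyl hydroxylase Plod3 (0.57). These calls were fragile: of the 6 fits without a library, P4hb was called in 3, P4ha2 in 2, Crtap in 1 and Plod3 in 0. With the set letter as a replicate block Crtap was not called (adjusted p = 0.0530, edgeR). Of 20 matrix receptors 16 were tested, 5 higher and 2 lower, beside 9.73% and 7.97% of all tested genes. Itga5, the α subunit of the fibronectin receptor, stood at 71.0, 32.6 and 44.1 CPM in young A, B and C and 179, 146 and 161 CPM in aged libraries (log2 fold change 1.72, adjusted p = 0.00450, edgeR). As for Thbs1, the highest young library was young A. The collagen receptor subunit Itga1 (1.71), the heparan sulphate proteoglycan Sdc4 (1.34), the hyaluronan receptor Cd44 (1.33) and the thrombospondin receptor Cd36 (0.83) also rose; without aged B Cd36 was at 0.52 (adjusted p = 0.0804, edgeR). The inhibitory collagen receptor Lair1 (log2 fold change -1.06) and Sdc3 (-0.69) fell, and Cd47, the other thrombospondin receptor, was not called (0.07). Without a library in turn, Itga1, Itga5 and Sdc4 were called in 6 of 6 fits, Cd44 in 5, Sdc3 in 4, Cd36 in 2 and Lair1 in 1. Of 13 genes around versican and hyaluronan 5 were tested, 2 higher and 0 lower, beside 9.73% and 7.97% of all tested genes. Tnfaip6, which encodes the hyaluronan-binding protein TSG-6, rose (log2 fold change 1.21, adjusted p = 0.00815, edgeR), as did the hyaluronidase gene Cemip2 (1.16), which were called in 6 and 2 of the 6 fits. The hyaluronan synthase gene Has1 did not overlap between ages but was not called (1.01, adjusted p = 0.0550, edgeR).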

How the data were processed

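RNA of F4/80+ CD64+ cells from 3 young and 3 aged Day 3 wound samples was amplified (SMART-Seq v4) and sequenced. Per the labels and the study's methods, the authors aligned reads to mm10 with STAR 2.7.3a and quantified them in Partek; the deposited matrix holds expected counts per gene (30.3% to 33.9% of the values in a library were not whole), with no gene under a total of 10. Values were rounded to whole counts. A second deposited table of the authors' own DESeq2 comparison (fold changes and p-values) was not used. Samples were grouped by the age label. Ages were compared with edgeR 4.0.16 (R 4.3.3; quasi-likelihood, TMM, filterByExpr, Benjamini-Hochberg over all 11878 tested genes; called at adjusted p under 0.05), without a covariate. Log2 CPM used a prior count of 2. Per-kb levels used transcript lengths of the GENCODE annotation of the same build. The code was tested on simulated data. Counts between samples of 1 age differed by more than sampling noise (chi-square per degree of freedom 32.5 to 123). DESeq2 1.42.0, limma 3.58.1 (voom), other scaling and filters, a replicate block and leaving out each library were tried. Files gave gene ends 1 base beyond the annotation, so ends are given 1 lower. Standard errors and intervals come from the edgeR fit and include the spread between samples. Floors cover counting error only, and PCR reads without molecular identifiers are not independent molecules.

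Members and lists were chosen with earlier results of these data known. Values in every sample are given for Fn1, Thbs1 and Vcan, for each member with an adjusted p under 0.05 and for the 5 other members with the highest level per length; other members are given by role, range and count. Examples of the pathway and cell type lists were mainly those with the lowest adjusted p and the highest level. For cell types, markers at 0 counts were named as well. Some examples, such as Fap, fell outside these rules.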

Additional observations from a re-analysis of the deposited data

How the results depend on the processing

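The count of 5 higher members was 7 in DESeq2, 5 in limma-voom, with DESeq2 size factors and without a filter on low counts, and 4 when at least 10 counts were required in every sample, where Col4a2 was not tested. Leaving out 1 library gave 1 (without young C) to 11 members (without aged A). The 11 include Loxl2, Thbs2 and Tnc, which passed the filter through aged B and aged C, where they were high. The count of lower members was 0 throughout. Over all genes, leaving out 1 library gave 151 (without young C) to 1574 higher and 67 (without young C) to 1128 lower genes, against 1156 and 947. The ratio of the summed level of the 34 low members ran from 0.916 (without aged B) to 2.40 (without aged A).

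Samples of the same set letter did not deviate together in every pair (correlations of deviations from the age means 0.18 for A, -0.02 for B and 0.11 for C), so the letters were not taken as pairs, and not every sample correlated best with its own letter. With a replicate block the same 5 members were called, beside 1203 higher and 912 lower genes in all; Col1a2 then had a log2 fold change of -0.051 and Col3a1 of -0.20.

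No member whose direction turned was called under any setting. In limma-voom the log2 fold changes were -0.17 for Col1a2, -0.14 for Col3a1, -0.047 for Mfap5 and -0.31 for Postn; the cause was not tested. Over the fits that left out 1 library they ran from -0.82 to 1.08 for Col1a2, -1.24 to 1.28 for Col3a1, -0.086 to 2.17 for Bgn, -0.93 to 1.47 for Mfap5, -0.59 to 1.29 for Sparc, -0.50 to 1.19 for Pcolce, -0.37 to 1.97 for Serpinh1 and -0.35 to 0.12 for Emilin1. Aged B gave the lowest value in each of these except Emilin1. At 1 count per 0.0553 to 0.0700 CPM, depth limits the members under the filter. The ratios to the floor for Nid1 and Tnc without aged B were added after seeing the data.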
